A study of Rattus norvegicus with 6 samples.

Results

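The kainate receptor genes Grik1, Grik2, Grik3, Grik4 and Grik5 and the auxiliary subunit genes Neto1 and Neto2 were examined in the hippocampus of Fmr1 KO rats. They were chosen by gene symbol, and all 7 were found among the 17455 genes of the deposited count table. Hippocampal RNA came from 3 WT and 3 KO male rats on a Long Evans background, aged 10 weeks, with 1 library per rat. The KO rats carried the mutant Fmr1 allele of the line LE-Fmr1em2Mcwi, and both genotypes were selected from littermates of the same crosses. The methods assign 1 litter per group to the RNA measurement, so the rats of a group may share a litter. Which rat came from which litter is not given in the sources used here. If each genotype came from its own litter, effects of litter and genotype cannot be told apart. The p-values set the difference between groups against the spread between these rats. For each gene, the fit moderated this spread toward that of other genes of similar level. Only this 1 line and males were measured, with no treatment named, and the labels give the tissue as hippocampus without its dorsal or ventral part. The question put to these data was whether loss of Fmr1, which encodes the translational repressor FMRP, went with a different level of each kainate receptor transcript in this tissue.

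Kainate receptors are glutamate-gated cation channels built from GluK subunits. GluK1, GluK2 and GluK3 can form channels by themselves, whereas GluK4 and GluK5, the high-affinity subunits, reach the cell surface as working channels only together with one of the former. Neto1 and Neto2 are membrane proteins that bind these channels and slow their closing. In the hippocampus, kainate receptors are best known from the mossy fibre synapse, where axons of dentate granule cells contact CA3 pyramidal cells, and from inhibitory interneurons.

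Grik5 was the member of the family with the clearest difference, about 12.1% lower in KO than in WT rats, and it was the only member in which no KO library reached a WT library. The remaining 6 genes had overlapping groups, namely Grik1, Grik2, Grik3, Grik4, Neto1 and Neto2. In all, 1 of the 7 genes passed an unadjusted p of 0.05 (edgeR, quasi-likelihood, two-sided), where 9.35% of the 11800 genes tested did (5.15% lower and 4.19% higher in KO). After Benjamini-Hochberg adjustment over all genes tested, 0 of the 7 passed an adjusted p of 0.05, against 0.0254% of all genes, and the smallest adjusted p among them was 0.385. DESeq2 also gave 1 member at an unadjusted p under 0.05 and 0 after adjustment, with no adjusted p for Grik1, Grik3 and Neto2. The groups were separate in 1 of 7 members and in 14.7% of all genes, and with 7 members a count of 1 is near these shares. Of the 7 log2 fold changes, 4 were negative and 3 positive, with a median of -0.0056 beside 0.0017 for all genes.

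The libraries held 9619812 to 13390476 reads counted in genes. Levels are given as CPM, the reads of a gene scaled to library size with TMM factors, and differences as log2 ratios of KO to WT (log2 fold change) with the standard error (SE) of the edgeR fit. These levels are not divided by transcript length and were therefore compared between groups, not between genes. Fmr1 had 47.6, 50.6 and 51.7 CPM in WT and 17.4, 13.1 and 11.6 CPM in KO, with a log2 fold change of -1.83 (adjusted p = 5.73e-06 from edgeR), so its reads were fewer in every KO library but not absent. A principal component analysis of all tested genes placed WT replicate 3 (6.20 on the first component, 28.8% of variance) inside the range of the KO libraries (5.49 to 11.0) and away from the other WT libraries (-19.6 and -12.4). Of 10 genes of hippocampal identity, 9 were expressed well enough to be tested, while Fibcd1, a marker of CA1 pyramidal cells, had 5 to 11 reads per library. Wfs1, listed like Fibcd1 for hippocampal identity and for CA pyramidal cells, had 352.2 to 476.2 CPM in WT and 363.2 to 431.6 CPM in KO. Of 8 listed choroid plexus genes, 3 were tested, and these summed to 13.0 to 14.9 CPM in WT and 7.9 to 11.5 CPM in KO.

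An annotated start of each of the 2 high-affinity subunit genes is shown. Their sequences differ, and both are given because the groups separated for Grik5 and overlapped for Grik4. The RNA data do not test these sequences. The windows are the 150 bases before a RefSeq start on the GRCr8 assembly. They lie on the minus strand, at chr1:89794910-89795059 for Grik5 and at chr8:52102064-52102213 for Grik4. Both are inside the annotated span of their gene, which extends upstream of them, so neither is the region before the whole gene. Capitals mark the GC box GGGCGG, searched on both strands and as the only motif.
Grik5: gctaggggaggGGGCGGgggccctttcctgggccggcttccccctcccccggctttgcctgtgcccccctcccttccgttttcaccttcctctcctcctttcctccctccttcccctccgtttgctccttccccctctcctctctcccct
Grik4: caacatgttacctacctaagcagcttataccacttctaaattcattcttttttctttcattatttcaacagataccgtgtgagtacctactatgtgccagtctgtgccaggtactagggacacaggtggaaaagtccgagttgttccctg
The Grik5 window had 68.0% GC and 5 CpG, and that of Grik4 had 42.0% GC and 2 CpG. Over the 250 bases before the start, a GC box was found in 3 of the 7 genes (Grik3, Grik5 and Neto2). The same search found it at 30.5% of 33469 annotated starts.

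Grik5, which encodes the high-affinity subunit GluK5 found across hippocampal principal cells, had 289.5, 320.8 and 297.9 CPM in WT replicates 1, 2 and 3. In KO replicates 1, 2 and 3 it had 275.4, 268.7 and 254.2 CPM. All KO values were lower than all WT values, a pattern that 7.52% of all genes shared, and the nearest pair was WT replicate 1 and KO replicate 1. The mean level was 302.7 ± 16.2 CPM in WT and 266.1 ± 10.9 in KO (SD, n = 3 each). The log2 fold change was -0.19 (SE 0.06, 95% interval -0.32 to -0.05, unadjusted p = 0.00954 and adjusted p = 0.385 from edgeR). With 3 libraries against 3, no exact two-sided permutation test can give less than p = 0.1. Grik5 had 2434 to 4111 reads per library, for which counting error alone is 1.56% to 2.03%, and the SD between rats was 5.34% of the mean in WT and 4.08% in KO. Without WT replicate 2, the highest library, the log2 fold change was -0.14 and the unadjusted p rose to 0.0612.

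**Figure D1:**
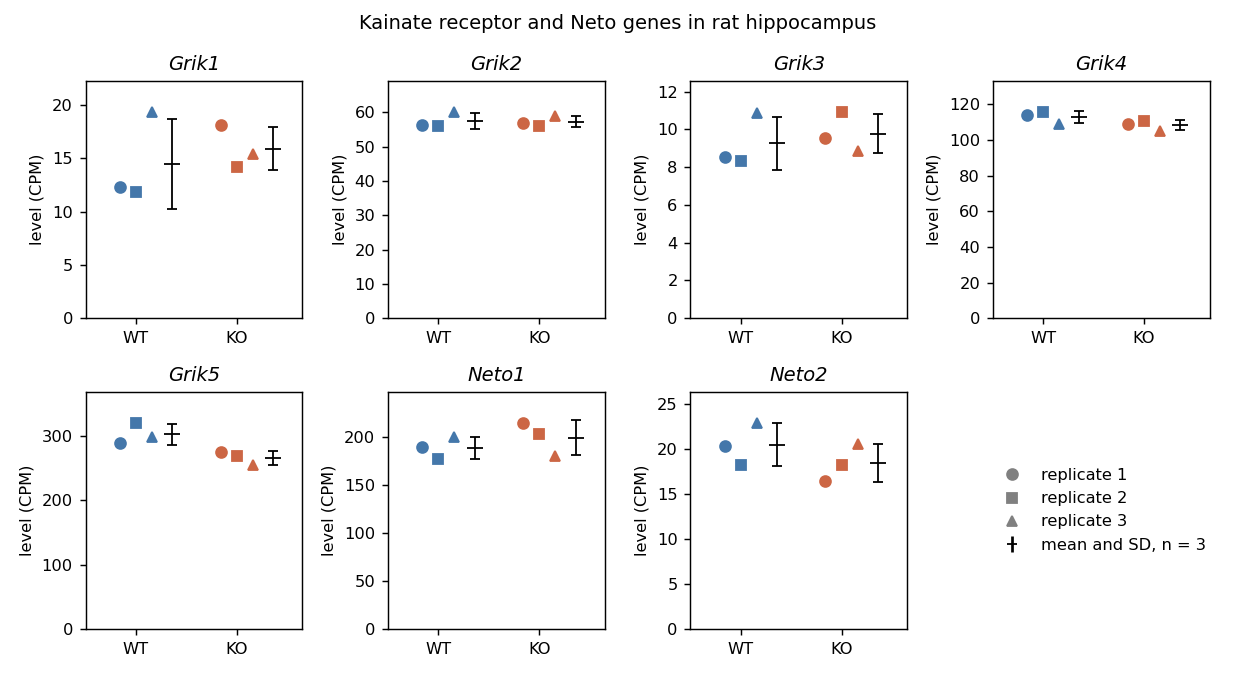
Level of each kainate receptor and Neto gene (CPM after TMM scaling, axes from 0) in the 3 WT and 3 KO libraries, with symbols for replicate numbers and bars for the mean and SD. For Grik5 the KO libraries (254.2 to 275.4 CPM) lie below the WT libraries (289.5 to 320.8 CPM), and in the 6 other panels the groups overlap.

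Grik4 encodes GluK4, the other high-affinity subunit, which is known from CA3 pyramidal cells and dentate granule cells. It had 113.8, 115.7 and 109.1 CPM in WT and 109.1, 110.5 and 105.1 CPM in KO. The lowest WT library, replicate 3, sat at the level of KO replicate 1, and below KO replicate 2. The log2 fold change was -0.06 (95% interval -0.20 to 0.07, unadjusted p = 0.356 from edgeR), so that a reduction to 0.873 of the WT level and a rise to 1.05 of it both lay within the interval. The SD between rats, 2.99% of the mean in WT and 2.62% in KO, was within the counting error of 2.58% to 3.15%.

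Among the subunits that form channels by themselves, Grik2, the gene of GluK2 of the mossy fibre synapse, had 56.3, 56.0 and 60.1 CPM in WT and 57.0, 56.0 and 59.0 CPM in KO. Its group means of 57.5 and 57.3 CPM were the closest of the family, and the 95% interval of the log2 fold change ran from -0.16 to 0.15 (unadjusted p = 0.939 from edgeR). Its replicate spread, 3.98% in WT and 2.71% in KO, was also within or below the counting error of 3.63% to 4.21%.

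Grik1, whose product GluK1 is prominent in hippocampal interneurons, was the most variable member. It had 12.3, 11.9 and 19.4 CPM in WT and 18.2, 14.2 and 15.5 CPM in KO. WT replicate 3 held both the highest level of the 6 libraries and the only WT level inside or above the KO range. The SD was 29.0% of the mean in WT and 12.8% in KO, above the counting error of 6.52% to 8.42%, and the log2 fold change was 0.13 (SE 0.18, 95% interval -0.27 to 0.53, unadjusted p = 0.487 from edgeR). Without WT replicate 3 it was 0.395 with an unadjusted p of 0.0135, and over the alternatives its adjusted p ran from 0.156 to 0.999. Without WT replicate 2 it was 0.0034. Of 16 tested interneuron genes, 0 passed an unadjusted p of 0.05 in either direction in edgeR. Their summed level was 1171, 1333.2 and 1480.5 CPM in WT and 1267.5, 1394.7 and 1330.5 CPM in KO, also highest in WT replicate 3, and the part of interneuron content in the Grik1 level was not tested.

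Grik3, the gene of GluK3, a low-affinity subunit described presynaptically at mossy fibres of the mouse, had 8.55, 8.35 and 10.9 CPM in WT and 9.54, 10.9 and 8.88 CPM in KO. With 85 to 148 reads per library it was the least deeply covered member, and counting error alone was 8.22% to 10.8%. The 95% interval of its log2 fold change was -0.25 to 0.42 (unadjusted p = 0.587 from edgeR), and levels from 0.842 to 1.34 of the WT level lay within it.

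**Figure D2:**
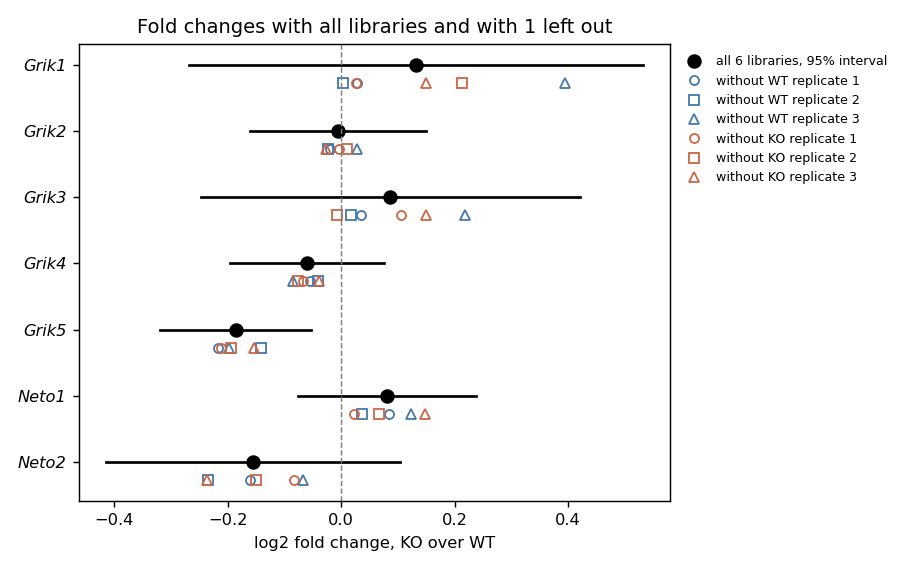
Log2 fold change (KO to WT) for each gene, with all 6 libraries (filled circle with 95% interval from edgeR) and with each library left out in turn (open symbols, coloured by genotype and shaped by replicate number). Grik5 stays between -0.22 and -0.14 in every fit, whereas Grik1 ranges from 0.0034 to 0.395 and is highest without WT replicate 3.

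Neither auxiliary subunit passed the unadjusted threshold. Neto1, an auxiliary protein of the mossy fibre to CA3 synapse, had 189.4, 176.4 and 199.5 CPM in WT and 214.7, 203.1 and 179.8 CPM in KO. KO replicates 1 and 2 exceeded all WT libraries, and KO replicate 3 lay near the lowest of them. The log2 fold change was 0.08 (95% interval -0.08 to 0.24, unadjusted p = 0.289 from edgeR) and ranged from 0.02 to 0.15 when single libraries were left out.

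Neto2, its paralog, had 20.3, 18.2 and 22.9 CPM in WT and 16.4, 18.2 and 20.6 CPM in KO. The groups overlapped, with the lowest level in KO replicate 1 and the highest in WT replicate 3. The log2 fold change was -0.16 (95% interval -0.41 to 0.10, unadjusted p = 0.22 from edgeR), an interval that reached from 0.75 to 1.07 of the WT level. Whether Neto1 and Neto2 differed from each other in their change was not tested. The ratio of Neto1 to Neto2 reads was 9.32, 9.70 and 8.71 in WT and 13.1, 11.1 and 8.74 in KO rats, and KO replicate 3 lay within the WT range. The difference in this ratio, 1.74 with all libraries, was 0.693 without KO replicate 1 and 2.87 without KO replicate 3.

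The makeup of the family was then described by shares and ratios of reads within each library, which do not depend on the scaling between libraries, and by the summed Grik level, which does. Grik5 took 60.3%, 62.6% and 59.9% of the reads of the 5 Grik genes in WT and 58.7%, 58.4% and 57.4% in KO rats. The groups did not overlap, but the 95% Wilson intervals of the nearest libraries did, at 58.65% to 61.12% in WT replicate 3 and 57.33% to 60.05% in KO replicate 1. These intervals cover counting error only. The summed Grik level was 480.5, 512.7 and 497.4 CPM in WT and 469.3, 460.2 and 442.6 CPM in KO, again without overlap. Neto1 and Neto2 together had 0.436, 0.380 and 0.447 reads per Grik read in WT and 0.492, 0.481 and 0.453 in KO rats. The share of Grik2 was 11.72%, 10.93% and 12.09% in WT and 12.14%, 12.16% and 13.33% in KO, so that WT replicate 3 and KO replicate 1 were almost level. These 4 measures, in which the groups did not overlap, all contain the Grik5 reads and are not independent of its level. No background share was computed for them. The shares of Grik1, Grik3 and Grik4 overlapped between the groups. The reads of Grik4 and Grik5 per read of Grik1, Grik2 and Grik3 numbered 5.23, 5.73 and 4.505 in WT and 4.54, 4.68 and 4.31 in KO rats, and here WT replicate 3 fell among the KO libraries.

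**Figure D3:**
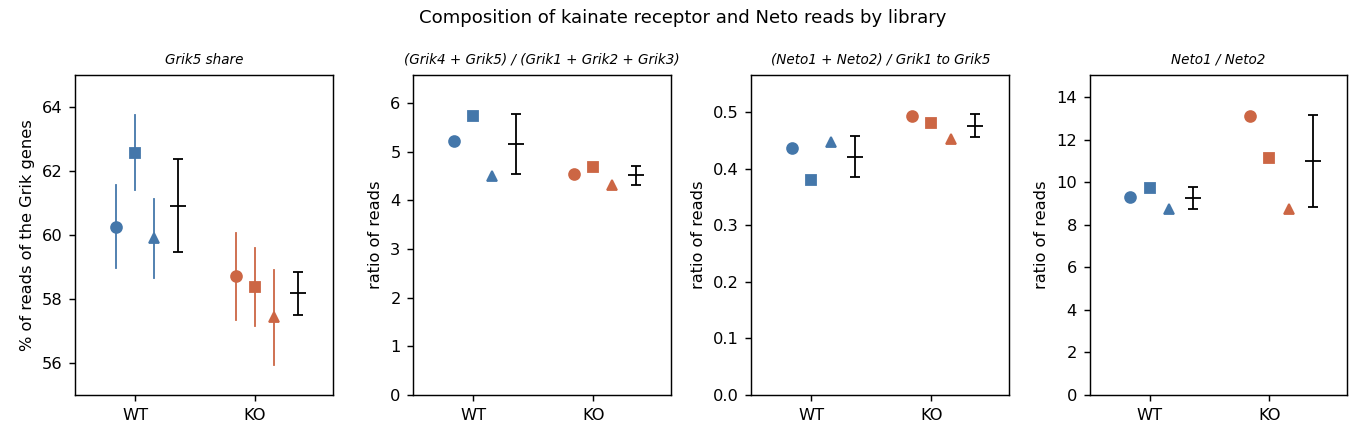
Share of Grik5 among the reads of the 5 Grik genes (axis from 55% to 65%, lines are 95% Wilson intervals), and ratios of reads of Grik4 and Grik5 to Grik1, Grik2 and Grik3, of both Neto genes to all Grik genes, and of Neto1 to Neto2, per library with mean and SD (n = 3). The Grik5 share is 57.4% to 58.7% in KO and 59.9% to 62.6% in WT. The ratio of Grik4 and Grik5 reads to those of Grik1, Grik2 and Grik3, not divided by transcript length, overlaps between the groups.

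The remaining glutamate receptor genes were counted at the same unadjusted threshold, which 5.15% of all genes passed on the lower and 4.19% on the higher side. Of 12 tested genes of AMPA, NMDA and delta receptor subunits, 1 was lower and 1 higher (median log2 fold change 0.0022, beside 0.0017 for all genes). The lower one was Grin2c, an NMDA receptor subunit, with 184.3, 194.5 and 183.0 CPM in WT and 150.5, 165.3 and 166.6 CPM in KO (log2 fold change -0.22, unadjusted p = 0.00365, adjusted p = 0.315 from edgeR). The higher one was Gria2, the AMPA receptor subunit that limits calcium entry, with 1316, 1299 and 1305 CPM in WT and 1544, 1355 and 1522 CPM in KO (log2 fold change 0.17, unadjusted p = 0.0137, adjusted p = 0.405 from edgeR). Without KO replicate 1 or KO replicate 3 no gene of this list was higher at that threshold, and without WT replicate 3 the count was 2. Of 8 metabotropic receptors, 1 was lower, the presynaptic receptor Grm4 (log2 fold change -0.41, SE 0.17, unadjusted p = 0.0303 from edgeR), and the median of the list was 0.0096.

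Proteins that bind, move or modify kainate receptors gave 1 lower and 0 higher gene among 38 tested, where 9.35% of all genes passed in either direction, with a median log2 fold change of 0.02. The lower one was Ctnnb1, which encodes beta-catenin of the cadherin complex (351.5 ± 19.4 CPM in WT, 318.5 ± 14.4 CPM in KO, SD, n = 3 each, log2 fold change -0.14, unadjusted p = 0.0407 from edgeR). Without WT replicate 3 this list had 4 lower and 2 higher genes, and without WT replicate 1, KO replicate 1 or KO replicate 3 it had 0 lower. C1ql2 and C1ql3, secreted proteins that recruit kainate receptors to mossy fibre synapses in the mouse, had 95% intervals of -0.80 to 0.37 and -0.35 to 0.11. C1ql2 was lowest in WT replicate 3 (45.2 CPM, against 82.6 and 73.8 CPM in the other WT libraries), as was the summed level of the dentate granule cell genes that include it. Among 15 genes of glutamate release, uptake and recycling, 1 was higher, the neutral amino acid transporter Slc38a2 (log2 fold change 0.22, SE 0.07, unadjusted p = 0.00807 from edgeR), and the median was 0.08.

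**Figure D4:**
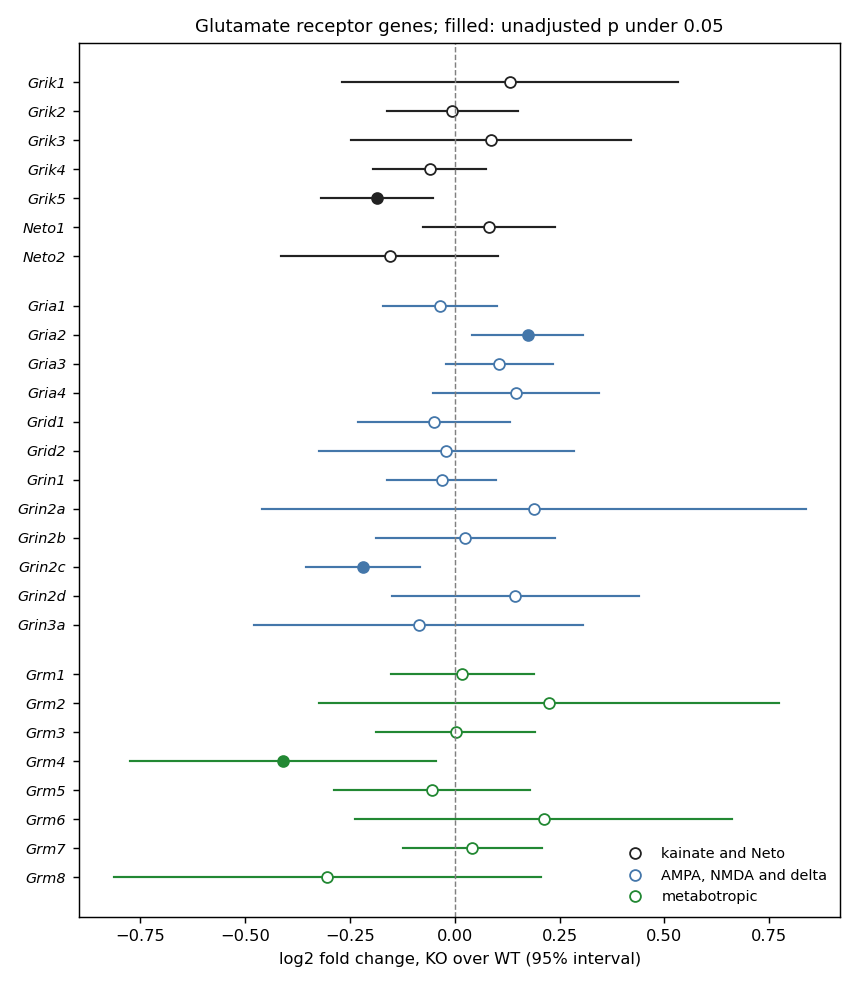
Log2 fold change of KO over WT with its 95% interval from edgeR for kainate receptor and Neto genes, for AMPA, NMDA and delta receptor subunits and for metabotropic receptors, with filled points at an unadjusted p under 0.05. Filled are Grik5, Grin2c and Grm4 on the lower side and Gria2 on the higher side, and none passed an adjusted p of 0.05.

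Marker genes of cell types were counted at the same unadjusted threshold, and in no list did a gene pass an adjusted p of 0.05 (edgeR). In bulk tissue, fewer cells of a type and less RNA per cell cannot be told apart. The counts in each list stand beside 5.15% lower and 4.19% higher among all genes tested. Of 18 tested genes of myelinating oligodendrocytes, 11 had lower and 0 had higher levels in KO (unadjusted p under 0.05, edgeR, 0 at an adjusted p under 0.05, median log2 fold change -0.27), and their summed level was 14513 to 15314 CPM in WT and 11423 to 13122 CPM in KO. The list for CA pyramidal cells held 13 tested genes, with 3 on the lower and 0 on the higher side (median -0.14). The lower ones were Bok (log2 fold change -0.30), Mpped1 (-0.18) and Rgs14 (-0.24). The summed level of this list overlapped between the groups, at 2586 to 2985 CPM in WT and 2579 to 2780 CPM in KO. Of 8 tested genes of dentate granule cells, 0 were lower and 1 higher, the cadherin Cdh9 (log2 fold change 0.27). The median of this list was 0.137, and its sum was 342.4 to 461.3 CPM in WT and 391.0 to 437.4 CPM in KO. At the same threshold, lower and higher genes numbered 2 and 0 of 8 for oligodendrocyte precursors, 0 and 2 of 12 for astrocytes, 1 and 0 of 12 for microglia and 1 and 1 of 9 for endothelial and mural cells. For neighbouring tissue they numbered 2 and 0 of 9 for neocortex, 0 and 1 of 10 for striatum, 1 and 0 of 3 for choroid plexus and 0 and 1 of 4 for thalamus and habenula, where the habenular gene Gpr151 was at 0 in all libraries. No other listed gene in the table was at 0 in all libraries, and the part of cell makeup in the Grik5 difference was not tested.

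Over the 6 libraries, Thsd1 and Bmp7 had the log2 CPM pattern most like that of Grik5 (Pearson r = 0.994 for both), and 34 genes exceeded 0.95. For Grik4 they were Lrrc8d and Rps27l (r = 0.992 for both), and for Neto1 Secisbp2l and Nr2c2 (0.998 and 0.996). Grik1 was followed most closely by Crb1 and Xylt1 (0.990 and 0.987), Grik2 by Inhba and Phactr3 (0.992 and 0.980), Grik3 by Farp1 and Bbs2 (0.997 and 0.992) and Neto2 by Rps6kc1 and Myh3 (0.989 and 0.987). With 6 points that share genotype and library, and 11800 genes to choose from, these values describe the pattern only. None of these genes was itself a kainate receptor or Neto gene.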

How the data were processed

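From total RNA, the authors prepared libraries with the NEBNext Ultra II kit (the methods name its directional version, the labels do not), aligned the reads with HISAT2 (build rn6) and made gene counts with HTSeq (tool versions, annotation and strand setting are not given in the sources used here). The deposited values used were raw counts, without normalization. A second deposited table held only the authors' DESeq2 comparison, its mean levels, fold changes, errors and p-values, and was not used. All 6 columns were assigned by label.

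Counts were analysed with edgeR 4.0.16 in R 4.3.3. After filterByExpr (minimum count 10) they were scaled by TMM and fitted with genotype as the only term (glmQLFit, robust), with Benjamini-Hochberg adjustment over 11800 genes. Intervals are at 95%. Alternatives were DESeq2 1.42.0, other scalings, no filter, no robust dispersion, the replicate number as a block and each library left out. Replicate pairs of a group differed beyond sampling noise (chi-square per degree of freedom 3.61 to 9.11).

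Named were all members, Fmr1, up to 3 genes per list with the smallest unadjusted p under 0.05 in the lists described, and the 2 genes most correlated with each member. Fibcd1, Wfs1, Gpr151, C1ql2 and C1ql3 were named outside this rule, after their values were seen. The members and lists were chosen with earlier results of these data known. Overlapping genes were looked up in RefSeq of GRCr8, used otherwise for start sequences (7 of 7 members matched). Grik5 and Neto2 had 0 overlapping genes, and none of the 1 or 2 overlapping each other member had a row of counts. Without a stated strand setting, antisense reads cannot be told apart.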

Additional observations from a re-analysis of the deposited data

How the results depend on the processing

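The log2 fold changes of Grik1, Grik4, Grik5, Neto1 and Neto2 kept their direction in all 12 alternatives, and no member passed an adjusted p of 0.05 in any (DESeq2 gave no adjusted p for Grik1, Grik3 and Neto2). Grik5 ran from -0.22 to -0.14, with unadjusted p from 0.00688 to 0.0612 and adjusted p from 0.123 to 0.844. The log2 fold change of Grik2 turned to 0.0059 with library size only and ranged from -0.0265 to 0.0272 with single libraries left out, and that of Grik3 ranged from -0.0068 to 0.219. With single libraries left out, 0 to 2 members passed an unadjusted p of 0.05 (0 without WT replicate 2, 2 without WT replicate 3, with Grik1). The count of all genes at an adjusted p under 0.05 was 3, and 35 with DESeq2, 9 with no filter, 17 with a replicate block and 1 to 256 with single libraries left out (256 without WT replicate 3), and the 1103 genes at an unadjusted p under 0.05 became 701 to 2095. AMPA, NMDA and delta subunits had 0 to 2 higher genes in those fits, and kainate receptor partners 0 to 4 lower and 0 to 2 higher (2 lower with DESeq2). The cause of these shifts was not tested. Same-numbered libraries did not deviate together (r = 0.028, -0.0088 and -0.078), so the numbers were not taken as pairs; with the replicate block, Grik5 was at -0.19 (unadjusted p = 0.0133 from edgeR). Shares and ratios within a library cannot move with the scaling, and their differences kept their direction with each library left out. The difference in summed Grik level was -39.5 CPM, and -35.7 CPM with library size only. Counting error was largest for Grik3 (8.22% to 10.8%). The spread between rats exceeded the counting error of the same gene in both groups for Grik1, Grik5, Neto1 and Neto2. For Grik3 it did so in WT only (15.2%, against 10.7% in KO).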
